A study of Mus musculus with 2 samples.

Results

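The dividing erythroblasts described here are 440 cell barcodes among 10198 kept from the temporomandibular joint (TMJ) of mice, 300 from the library of joints injected with PBS and 140 from that of joints injected with CFA (complete Freund's adjuvant), a suspension of killed mycobacteria in oil that causes lasting inflammation. Members were selected on measured values, namely the globin, erythroid and proliferation RNA of each barcode. A barcode was a member when it had at least 500 genes, at least 4000 UMIs (counted RNA molecules), at most 10% mitochondrial UMIs, at least 20% of its UMIs from the adult globin genes Hba-a1, Hba-a2, Hbb-bs and Hbb-bt, at least 3 UMIs of Alas2 plus Slc4a1, and at least 3 UMIs of Mki67 plus Top2a. The mice were wild-type C57BL/6 by the labels and C57BL/6J in the study's methods, listed as 8 to 10 weeks old and, in the study's methods, female and injected at 8 weeks into both TMJs, with either PBS or CFA (5 mg/mL) in a volume of 10 µL. Tissue was collected 3 weeks later, digested, depleted of CD45-bearing leukocytes and sequenced on the 10x Genomics 3' platform, with 1 library per condition. The methods give 3 joints per group without tying a barcode to a joint, so each library is 1 sample: no difference between PBS and CFA has a replicate check, and none was tested. All intervals are 95% and cover counting error only.

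Erythroblasts are the nucleated precursors of red cells and mature in the bone marrow around macrophages. As they divide they switch on globin, heme and membrane genes under the transcription factors GATA1, TAL1 and KLF1, and with successive divisions the cells become smaller, condense their chromatin, stop replicating and finally expel the nucleus. A barcode rich in hemoglobin RNA that also carries Mki67 and Top2a therefore sits late in this program but still in the cell cycle. Mki67 encodes the Ki-67 protein of cycling cells, Top2a the DNA topoisomerase that untangles chromosomes, Alas2 the erythroid enzyme for the committed step of heme synthesis, and Slc4a1 the band 3 anion exchanger of the red cell membrane.

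Members made up 300 of 5845 kept barcodes in PBS (5.13%, exact Clopper-Pearson interval 4.58 to 5.73) and 140 of 4353 in CFA (3.22%, 2.71 to 3.78), a ratio of 0.627 (0.515 to 0.763). Of every deposited barcode they were 3.91% in PBS and 2.45% in CFA. Among all hemoglobin-high erythroid barcodes, dividing or not, the members were 300 of 534 in PBS (56.2%, 51.9 to 60.4) and 140 of 268 in CFA (52.2%, 46.1 to 58.4), and these intervals overlap. Without barcodes holding 10 UMIs of another cell type, described below, the ratio of shares was 0.813 (0.656 to 1.01). Without barcodes holding 3 UMIs of any of 6 such lists it was 0.529 (0.398 to 0.703), at 30% hemoglobin 0.760 (0.612 to 0.944) and at 5 Mki67 plus Top2a UMIs 0.607 (0.488 to 0.755). The share of the joint suspension was thus lower in CFA by more than the counting error, except under the 10-UMI filter, where the interval reached 1, while the share dividing within the erythroid barcodes differed by less than the counting error. A share also depends on how many barcodes of other cell types passed the digestion and the CD45 depletion, and the part of this in the lower share was not tested. Hemoglobin RNA outside the members differed as well. Kept barcodes under 20% hemoglobin had a summed hemoglobin share of 2.25% in PBS and 0.287% in CFA, with upper quartiles of 8.61% and 0.0616%. The part of this difference in the number of barcodes past the 20% limit was not tested.

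The members' hemoglobin share had a median of 44.8% in PBS (20.1 to 82.9) and 51.5% in CFA (20.8 to 79.1). Their median depth was 10356 UMIs in PBS and 10645.5 in CFA, and the median without hemoglobin UMIs was 5035 and 4910.5. The median count of Mki67 plus Top2a was 23.5 UMIs in PBS and 32.5 in CFA, against the 3 that the rule asks for. Just inside that limit lay 25 PBS and 16 CFA barcodes with exactly 3 of these UMIs and median hemoglobin shares of 72.1% and 68.5%; just outside lay 48 and 21 barcodes with 2 UMIs, at 71.1% and 72.5%. At the hemoglobin limit, 25 PBS and 2 CFA members had 20 to under 22%, and 12 and 6 barcodes that met the other conditions had 18 to under 20%. The summed members held 3692721 UMIs in PBS and 1525000 in CFA, of 51146169 and 53517206 in the whole libraries, and no member's barcode sequence occurred in both libraries.

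**Figure D1:**
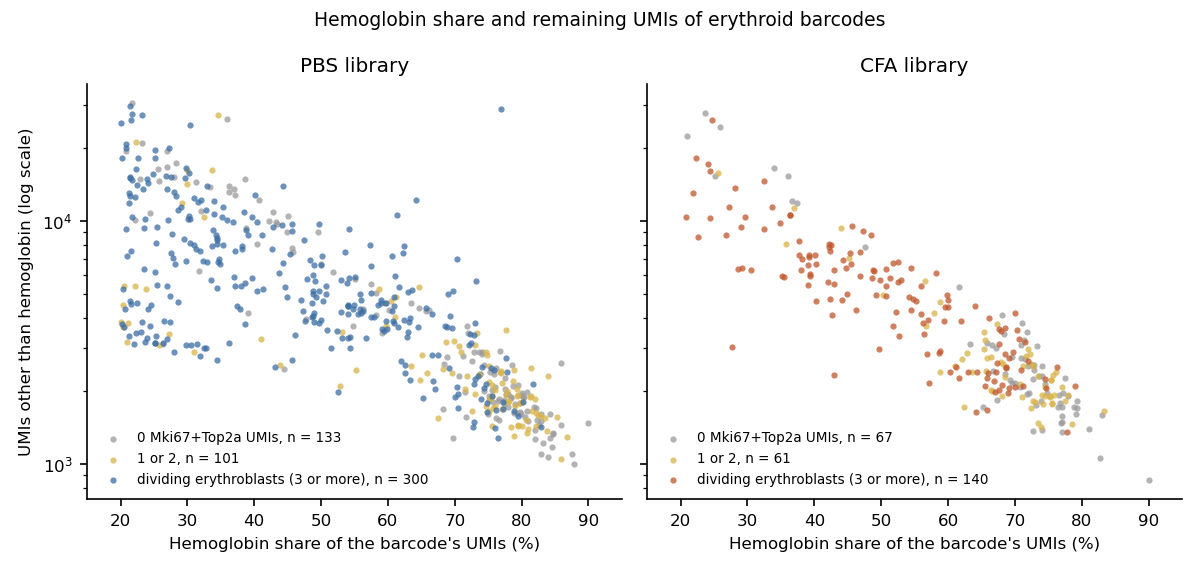
Each point is a barcode of the PBS (left) or CFA (right) library, with the percent of its UMIs from hemoglobin on the horizontal axis and its UMIs other than hemoglobin on the vertical axis (log scale), coloured by its Mki67 plus Top2a count. Dividing erythroblasts span about the same range in both libraries, from the 20% limit to 82.9% in PBS and 79.1% in CFA, and the nondividing erythroid barcodes gather at the lower right, at median hemoglobin shares of 73.7% and 72.1%.

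Many members also carried RNA of other joint cells, and the library with more such members depended on the limit. At least 10 UMIs of any 1 of 15 marker lists of other cell types were found in 87 of 300 PBS members (29.0%) and 11 of 140 CFA members (7.86%). At least 3 UMIs of any 1 of 6 of these lists were found in 135 PBS members (45.0%) and 75 CFA members (53.6%), the opposite order. At 3 UMIs neutrophil markers were found in 54 PBS and 47 CFA members, monocyte and macrophage markers in 19 and 44, and fibroblast markers in 108 and 2. Fibroblast markers summed to 5596 counts per 1000000 (CPM) in PBS members and 82.1 in CFA members, neutrophil markers to 3750 and 369, and osteoblast markers to 953 and 44.2, whereas monocyte and macrophage markers were higher in CFA, at 116 and 751. Members with at least 10 such UMIs had a median of 3184 genes in PBS against 1737 without, and 3304 against 1654 in CFA. Whether these barcodes hold 2 cells or free RNA was not tested, and no doublet caller was run. The comparisons below with precursors and other dividing barcodes use every member only. Those with nondividing barcodes, across hemoglobin groups and between the libraries are given also without these barcodes, for 213 PBS and 129 CFA members. This filter, like the sets of precursors and other dividing barcodes used below, was chosen after the data were seen.

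A pair of adult alpha and a pair of adult beta globin genes supplied nearly all of the hemoglobin RNA. As a percent of all UMIs in PBS and CFA members, Hba-a1 (chromosome 11, 32283511 to 32284465, GRCm38) gave 10.2 and 13.0, Hba-a2 (chromosome 11, 32296489 to 32297298) 5.604 and 3.27, Hbb-bs (chromosome 7, 103826534 to 103828096) 21.8 and 25.6, and Hbb-bt (chromosome 7, 103812524 to 103813996) 6.90 and 6.19. The alpha to beta ratio was 0.550 in PBS and 0.511 in CFA. Hba-a2 supplied 35.5% of alpha UMIs in PBS and 20.1% in CFA, and single members ranged from 23.9% to 43.6% and from 14.3% to 24.6% between their 5th and 95th percentiles. The gap was present in other sets too: 42.9% and 23.5% in nondividing erythroid barcodes, 26.9% and 13.9% in hemoglobin-low precursors, and 37.1% and 17.2% in all barcodes under 20% hemoglobin. Hba-a1 and Hba-a2 are near-identical copies, so the split of UMIs between them is uncertain. Embryonic globins were nearly absent: Hbb-bh1 had 31 UMIs in 1 PBS member and 1 UMI in CFA, Hba-x and Hbb-y had 1 UMI each in PBS and 0 in CFA, and Hbb-bh2 had 0 in both, where 3 UMIs would be 1.46 CPM in PBS and 3.79 in CFA.

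Because globin RNA took 44.5% of the members' UMIs in PBS and 48.1% in CFA, levels below are CPM with hemoglobin UMIs left out of the total, unless stated. For Alas2, for example, 1647 CPM in PBS and 2327 in CFA become 915 and 1209 of all UMIs. UMIs are not scaled by gene length, so levels are compared between sets and libraries, not between genes. Ratios were taken after adding 10 CPM to each side, and a gene was counted with at least 50 UMIs over the sets compared. The 10 genes with the highest CPM outside hemoglobin were Malat1, Gpx1, Fth1, Gm42418, H3f3a, Prdx2, Car2, Tpt1, mt-Co3 and Cd24a. Gpx1, which removes peroxides, was at 6557 CPM in PBS members and 11034 in CFA members, against 613 and 787 in kept barcodes under 20% hemoglobin. Prdx2, which does so too, was at 5260 and 6642 against 434 and 232, and Car2, a carbonic anhydrase, at 4438 and 6961 against 358 and 104.

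The members were set beside 3 other sets of barcodes. Nondividing erythroid barcodes met the same rule with no Mki67 or Top2a UMI (133 in PBS, 67 in CFA). Hemoglobin-low dividing precursors had under 20% hemoglobin, at least 3 Mki67 plus Top2a UMIs and at least 3 UMIs of Klf1 plus Gata1 (100 and 44). Other dividing barcodes had under 20% hemoglobin, the same Mki67 plus Top2a count and no UMI of Klf1, Gata1, Alas2 or Slc4a1 (151 and 209). The genes that define a set are not findings, and since the members were cut from the same cells, every value below is a description with no test.

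Against the precursors, the members were higher in heme, membrane and organelle-clearance genes. Over all 9400 genes counted, 593 (6.31%) were at least 2-fold higher in both libraries and 719 (7.65%) at least 2-fold lower, against 8 and 0 of 13 heme synthesis genes, 22 and 0 of 29 membrane genes and 16 and 0 of 19 clearance genes. Without Alas2 and Slc4a1, which the rule for members uses, 7 and 0 of 12 heme genes and 21 and 0 of 28 membrane genes remained. Fech, which inserts iron into heme, was at 1216 CPM in PBS members and 274 in PBS precursors and at 1750 and 414 in CFA. Xpo7, a nuclear exporter used in the loss of nuclear proteins before enucleation, was at 977 and 47.0 in PBS and at 1716 and 15.4 in CFA. Car1, another carbonic anhydrase, ran the other way, at 218 and 1323 in PBS and at 129 and 1624 in CFA. Bcl11a, a repressor of embryonic globin genes, was also lower in members, at 35.6 and 219 in PBS and 61.9 and 201 in CFA.

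The members and precursors differed in the balance of cell cycle genes. None of 32 replication genes was 2-fold higher in members and 3 were 2-fold lower in both libraries, with list medians of 0.701 in PBS and 0.561 in CFA, while 12 of 35 mitosis genes were 2-fold higher and 0 lower, with medians of 1.80 and 1.99. The medians over all genes were 0.951 and 0.818. Both sets needed 3 Mki67 plus Top2a UMIs, which is a stricter limit in the members, since they had fewer UMIs. Without hemoglobin the median was 5035 in PBS and 4910.5 in CFA members, against 26233 and 22625.5 in precursors. The part of this in the mitosis values was not tested. Mcm7, part of the replicative helicase, was at 238 CPM in PBS members and 401 in precursors, and at 189 and 421 in CFA. Ube2c, which supplies ubiquitin to the complex that ends mitosis, was at 2087 and 487 in PBS and at 2782 and 713 in CFA. Cdkn2d, an inhibitor of the kinases that start the cycle, was at 505 and 43.9 in PBS and at 886 and 100 in CFA.

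The promoter of Ube2c is shown because CCAAT boxes and the cell cycle homology element TTTGAA are known promoter features of mitotic genes. It covers chr2:164769679-164769928 (RefSeq, GRCm38.p6, plus strand, the 250 bases before the start), and capitals mark CCAAT or TTTGAA on either strand.
Ube2c: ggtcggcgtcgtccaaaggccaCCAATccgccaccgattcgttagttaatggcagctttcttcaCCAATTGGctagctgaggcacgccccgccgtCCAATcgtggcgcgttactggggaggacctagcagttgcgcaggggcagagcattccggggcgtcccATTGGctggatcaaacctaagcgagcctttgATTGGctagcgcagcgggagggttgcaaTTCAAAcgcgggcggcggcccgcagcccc
This window holds 7 matches, from 228 to 29 bases before the start. CCAAT was found for 23 of 30 genes of the mitosis list and in 33.8% of all 32851 promoters, TTTGAA for 9 of 30 and in 15.99%, and both for 8 of 30 and in 5.55%. A listed gene was counted if any of its promoters matched, while all promoters, which belong to 27025 genes, were counted singly. The shares are therefore not in the same unit. In the replication list CCAAT was found for 18 of 27 genes. These are letter matches, not binding sites.

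Against the other dividing barcodes, most genes of the erythroid lists were higher in the members, a direction that the definitions of both sets fix in part. Of 11463 genes counted, 944 (8.24%) were at least 2-fold higher in both libraries and 1246 (10.9%) at least 2-fold lower. Heme synthesis had 12 of 13 genes higher and 1 lower, membrane 26 of 30 and 2, and erythroid transcription factors 13 of 19 and 0. Without Alas2, Slc4a1, Klf1 and Gata1, which define the sets, these were 11 of 12 and 1, 25 of 29 and 2, and 11 of 17 and 0. All 6 genes of the CD45 and immune surface list and 8 of 13 of MHC class I and the immunoproteasome were lower, with none 2-fold higher. Ptprc, which encodes CD45, had 64 UMIs in PBS members and 16 in CFA members, present in 10.7% and 5.0% of them. Of 35 mitosis genes 19 were at least 2-fold higher in the members and 0 lower, with medians of 2.16 and 3.83, against 0.805 and 0.718 over all genes. Here too the limit of 3 Mki67 plus Top2a UMIs was stricter in the members. Their median without hemoglobin was 5035 UMIs in PBS and 4910.5 in CFA, against 13089 and 20799 in the other dividing barcodes. The part of this depth difference in the mitosis values was not tested.

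**Figure D2:**
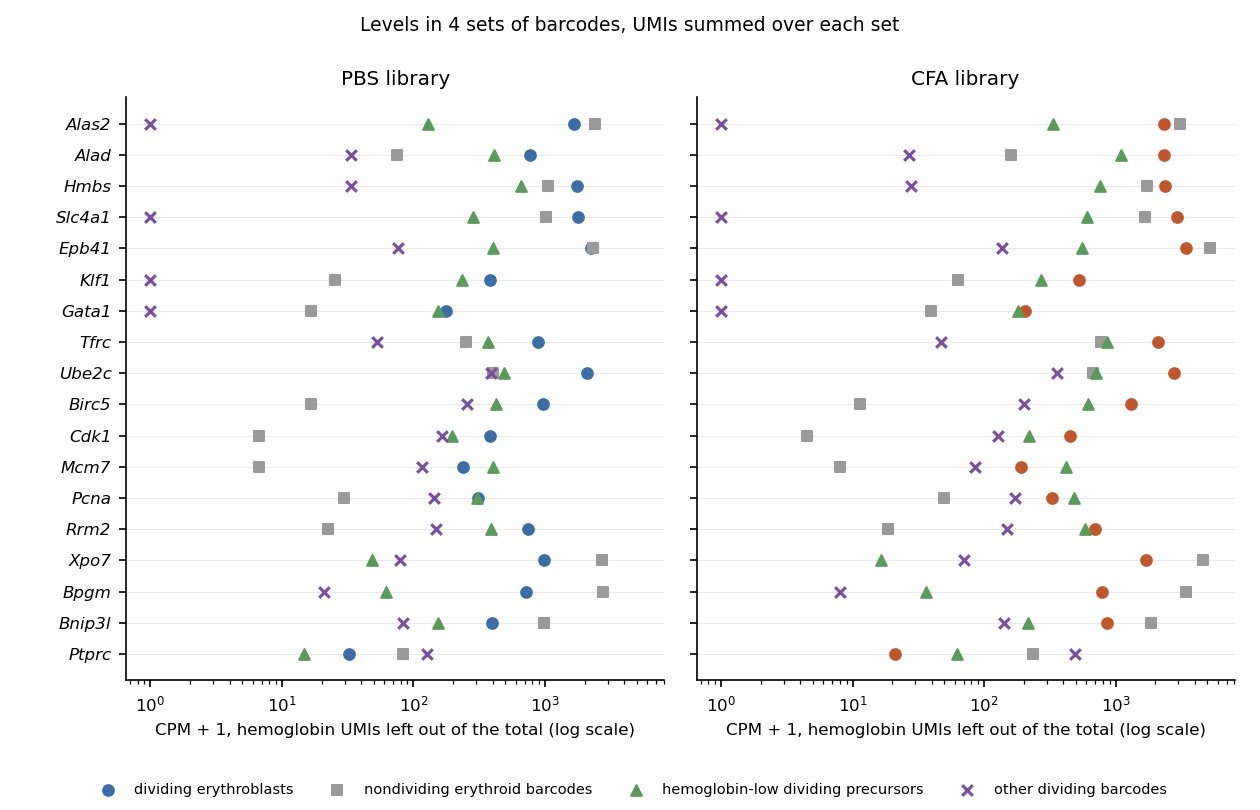
CPM plus 1 of named genes (log scale, hemoglobin left out of the total) in dividing erythroblasts, nondividing erythroid barcodes, hemoglobin-low dividing precursors and other dividing barcodes of the PBS (left) and CFA (right) library, from UMIs summed over every barcode of a set. Xpo7 and Bpgm lie highest in the nondividing barcodes, Ube2c and Birc5 in the members, and Mcm7 in the precursors, in both libraries.

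Against the nondividing erythroid barcodes, 882 of 7834 genes (11.3%) were at least 2-fold higher in both libraries and 956 (12.2%) at least 2-fold lower. Among barcodes without 10 UMIs of another cell type the numbers were 1626 (38.6%) and 237 (5.63%) of 4208, with 76 of 133 PBS and 48 of 67 CFA nondividing barcodes kept. The cell cycle genes were higher in the members in both versions: 30 of 31 replication genes and 35 of 35 mitosis genes, or 31 of 31 and 34 of 35 after the filter. The definitions fix this direction in large part, since members needed 3 Mki67 plus Top2a UMIs and nondividing barcodes had 0. Birc5, the survivin of the dividing spindle, was at 967 CPM in PBS members and 15.7 in PBS nondividing barcodes, and at 1305 and 10.5 in CFA. Clspn, needed for replication checkpoints, had 395 and 166 UMIs in the members and 0 in both nondividing sets, where a count of 0 allows up to 4.28 CPM in PBS and 10.5 in CFA (3 UMIs a library). Beside Mki67 and Top2a, which the rule uses, the highest ratios were those of Hist1h1b, Hist1h2ap, Birc5, Knl1, Hist1h2ab, Tpx2, Ccnb2 and Cdca8, all of them histone or mitosis genes.

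Values for heme and membrane genes depended on this filter. Unfiltered, 7 of 12 heme synthesis genes were 2-fold higher and 0 lower in members than in nondividing barcodes (medians 2.93 in PBS and 2.51 in CFA); filtered, 4 were higher and 1 lower (1.14 and 1.21, against 1.89 and 2.07 over all genes). For membrane genes the numbers went from 15 and 2 of 29 to 5 and 2 of 27. Slc4a1 was at 1795 CPM in PBS members and 1010 in nondividing barcodes unfiltered, but at 2560 and 3704 filtered, and in CFA at 2949 and 1670, then 3137 and 3940. Alas2 was lower in members either way, at 2187 and 6388 in PBS and 2523 and 6047 in CFA after the filter. Epb41, the protein 4.1 of the membrane skeleton, was at 3194 and 8346 and at 3594 and 12671. Cpox and Tmem14c, which act on heme precursors in the mitochondrion, stayed higher in the members: Cpox at 1446 and 481 in PBS and 1193 and 567 in CFA, and Tmem14c at 1344 and 57.8 and at 1026 and 75.6. Alad, the enzyme after ALAS, was likewise at 1121 and 250 in PBS and at 2546 and 387 in CFA.

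Of 18 transcription factors in the same comparison, 11 were at least 2-fold higher in members and 0 lower unfiltered, and 8 and 1 filtered. Over all genes the shares were 11.3% and 12.2% unfiltered and 38.6% and 5.63% filtered, so the filtered numbers lay near them. The filtered list medians were 2.44 in PBS and 2.02 in CFA, against 1.89 and 2.07 over all genes. Klf1 was at 574 CPM in filtered PBS members and 96.3 in filtered nondividing barcodes, and at 560 and 132 in CFA. Gata1 was at 253 and 51.4 in PBS and at 218 and 94.5 in CFA. Sox6, a partner in globin gene switching, was at 4241 and 4102 and at 5008 and 5112, with ratios near 1. Foxo3, which drives late maturation genes, was at 1094 and 1554 and at 1154 and 1946, lower in members in both libraries.

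Organelle clearance and enucleation genes were lower in the members. Unfiltered, 6 of 19 were at least 2-fold lower and 2 at least 2-fold higher in both libraries; filtered, 12 of 18 were lower and 0 higher, with medians of 0.281 in PBS and 0.353 in CFA. Xpo7 was at 1354 CPM in filtered PBS members and 10946 in filtered nondividing barcodes, and at 1820 and 11877 in CFA. Bnip3l, the NIX receptor that clears mitochondria, was at 451 and 2369 and at 913 and 3477. Ube2l6, an enzyme of the ISG15 and ubiquitin systems, was at 848 and 4000 and at 1178 and 4309. Bpgm, which makes the phosphoglycerate that loosens oxygen from hemoglobin, was at 715 and 7222 and at 879 and 6453. Bcl2l1, the survival protein of late erythroblasts, was at 301 and 1830 and at 385 and 1975. The 10 lowest genes by the weaker of both unfiltered ratios were Ecrg4, Comp, Ltbp1, Cxcl14, Angptl1, Dpt, Creb5, Sfrp1, Hmox1 and Gpm6b, most of them connective tissue genes, and in the filtered members the highest of them was Comp at 8.00 CPM in PBS and Creb5 at 10.5 CPM in CFA.

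The Alas2 promoter is shown because GATA1 binds the letters AGATAA and Alas2 is among its known targets. It covers chrX:150547167-150547416 (RefSeq, GRCm38.p6, plus strand), and capitals mark AGATAA, here read on the other strand, 86 bases before the start.
Alas2: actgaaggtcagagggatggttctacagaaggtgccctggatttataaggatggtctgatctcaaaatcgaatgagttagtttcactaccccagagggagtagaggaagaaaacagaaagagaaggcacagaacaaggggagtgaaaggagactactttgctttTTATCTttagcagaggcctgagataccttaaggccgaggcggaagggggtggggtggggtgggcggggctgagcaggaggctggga
AGATAA was found in any promoter of 7 of 20 genes of the membrane list and 1 of 11 of the heme list, and in 9.99% of all single promoters of this length. A promoter without these letters may still be bound.

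Members within each library were then ordered by hemoglobin share and split into 3 equal groups, after leaving out those with 10 UMIs of another cell type (71 per group in PBS, 43 in CFA). The median hemoglobin share was 33.9, 53.7 and 70.0% in PBS and 38.2, 52.7 and 68.1% in CFA. The median number of UMIs other than hemoglobin was 7666, 4528 and 2555 in PBS and 7018, 4920 and 2406 in CFA. Replication genes summed to 9732, 6843 and 1926 CPM in PBS and to 9391, 2622 and 283 in CFA. Mitosis genes summed to 14768, 23271 and 20362 CPM in PBS and to 18217, 32367 and 9007 in CFA. Replication RNA was thus lowest in the hemoglobin-richest group of both libraries, while mitosis RNA was highest in the middle group of these filtered members. Over every member the mitosis genes summed to 7606, 17023 and 20683 CPM in PBS, highest in the hemoglobin-richest group, and to 16995, 29328 and 12808 in CFA. The hemoglobin-richest group lies close to the limit of the rule, with median Mki67 plus Top2a counts of 7 in PBS and 5 in CFA.

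From the lowest to the highest hemoglobin group, 350 of 6375 genes (5.49%) were at least 2-fold higher in both libraries and 1227 (19.2%) at least 2-fold lower. Over every member, with other-cell RNA included, the numbers were 357 (5.6%) and 1383 (21.7%). In the filtered groups, of the clearance list 13 of 18 were 2-fold higher and 0 lower, and of the replication list 0 of 31 higher and 30 lower. Heme synthesis had 5 of 12 higher and 1 lower, and membrane genes 4 of 29 and 1. Xpo7 was at 290, 224 and 5580 CPM in PBS and at 247, 1086 and 7908 in CFA. Bpgm was at 188, 342 and 2534 and at 119, 501 and 3861, and Isg15, a ubiquitin-like protein, at 467, 1390 and 2877 and at 452, 2487 and 3861. Both were highest in the hemoglobin-richest group of each library. Alas2 was at 1317, 2118 and 4382 and at 1603, 2622 and 5075, whereas Tmem14c was at 2078, 760 and 438 and at 1713, 436 and 106. Pcna, the clamp of the replication fork, was at 586, 383 and 56.4 and at 672, 111 and 17.7, and Slbp, which binds histone mRNA in S phase, at 898, 842 and 174 and at 913, 232 and 0.

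**Figure D3:**
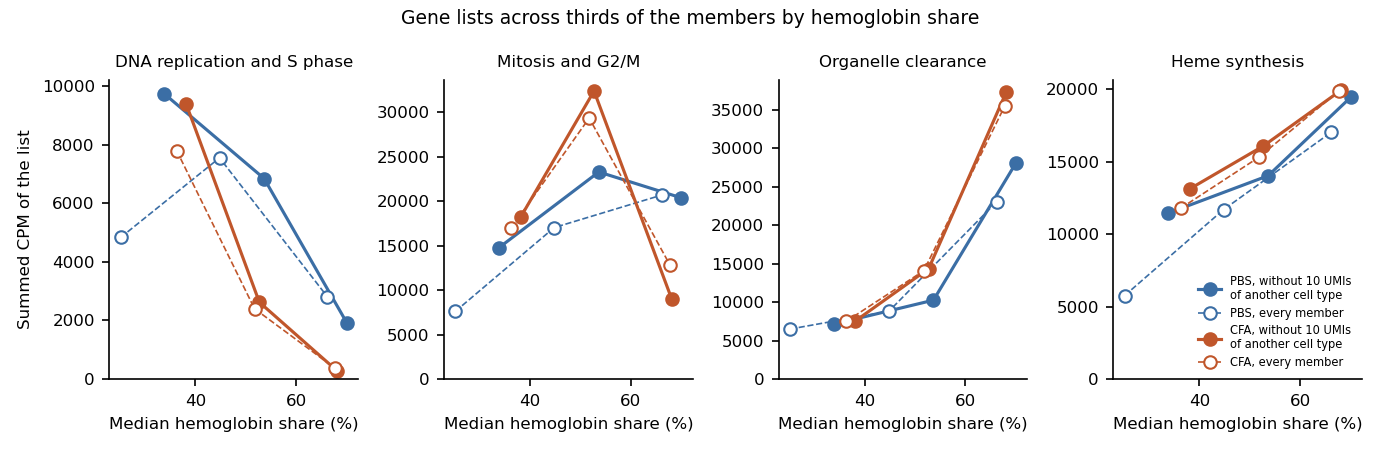
Summed CPM of 4 gene lists (hemoglobin left out of the total) in 3 equal groups of members against the median hemoglobin share of each group, with solid lines for members without 10 UMIs of another cell type and dashed lines for every member. Replication genes are lowest and clearance genes highest in the hemoglobin-richest group of both libraries.

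Comparing the members of the CFA library with those of the PBS library, 159 of 6375 genes (2.49%) were at least 2-fold higher and 927 (14.5%) at least 2-fold lower, around a median ratio of 0.917. Without members holding 10 UMIs of another cell type, 77 of 4020 genes (1.92%) were higher and 108 (2.69%) lower, around a median of 0.994, and 53 of the 159 and 83 of the 927 genes were among them. A set of 1001 genes was at least 2-fold higher in members than in barcodes under 20% hemoglobin in both libraries. This choice was also made after the data were seen. Over every member, 76 of them (7.59%) were higher and 2 (0.2%) lower in CFA, around a median of 1.39. Under the 10-UMI filter 20 were higher and 7 lower, around a median of 1.09, and under the 3-UMI filter 15 and 11. With 1 library per condition, a difference between the conditions and one between the libraries cannot be told apart.

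The 10 lowest ratios were those of Mucl2, Obp1a, Dcn, Col1a1, Gsn, Col1a2, Col3a1, Obp1b, Prg4 and Gm5938. Dcn, Col1a1, Gsn, Col1a2, Col3a1 and Prg4 are connective tissue genes: Col1a1, a collagen chain, was at 2569 CPM in PBS members and 37.9 in CFA members, and at 130 and 43.6 after the filter, against 5352 and 2708 in the barcodes under 20% hemoglobin. Obp1a, an odorant-binding protein gene, had 1260 UMIs in PBS members and 0 in CFA members, which allows up to 3.79 CPM, and Mucl2 had 1740 and 0; the barcodes under 20% hemoglobin were at 3236 and 0 CPM for Obp1a and at 2938 and 0.022 for Mucl2. The 10 highest ratios were those of Apol11a, Gm35082, Acyp2, Cd74, Emb, H2-Aa, H2-Eb1, Cxcl2, Lyz2 and H2-Ab1. Of these, Cd74 was at 30.7 and 364 CPM in members and 83.4 and 1907 in barcodes under 20% hemoglobin, and Lyz2, a lysozyme of myeloid cells, at 74.6 and 574 and at 285 and 9053, so the levels of these genes moved the same way outside the erythroid barcodes.

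Genes of heme and iron supply were among those higher in CFA members. Alad (chromosome 4, 62509169 to 62519918) was at 768 CPM in PBS members and 2343 in CFA members (2238 to 2452), a ratio of 3.02, or 2.26 after the filter. Single members had a median of 710 CPM and quartiles of 295 and 1288 in PBS, and a median of 2090 and quartiles of 1405 and 3031 in CFA, so that the middle ranges did not overlap. The same order held in the nondividing barcodes (74.2 and 161) and the precursors (411 and 1097), but not in barcodes under 20% hemoglobin (69.9 and 48.3). Tfrc, the transferrin receptor that brings in iron (chromosome 16, 32608920 to 32632794), was at 879 and 2117, a ratio of 2.39 and 1.76 after the filter. Steap3, which reduces the iron in endosomes, was at 37.1 and 98.5, a ratio of 2.31 and 2.35. Ftl1, the ferritin light chain, was on the other side at 3048 and 2192, a ratio of 0.720 and 0.619. Over the lists, 1 of 12 heme genes and 2 of 14 iron genes were 2-fold higher and none 2-fold lower. The shares of all genes were 2.49% and 14.5%. The list medians of 1.38 and 1.18 became 1.04 and 1.06 after the filter. Over the 1001 genes higher in members than in barcodes under 20% hemoglobin, the median of 1.39 became 1.09.

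Membrane genes and transcription factors were mostly within 2-fold. Their medians were 1.48 over 29 membrane genes and 1.39 over 18 transcription factors, and 1.08 and 1.02 after the filter, against 0.994 over all filtered genes. Without barcodes holding 3 UMIs of another cell type the medians of the heme and transcription factor lists were 0.993 and 0.992, just under 1. Rhag, the Rh-associated ammonium channel, was the 1 membrane gene past 2-fold, at 576 and 1227 CPM (ratio 2.11, filtered 1.58). Klf1 was at 379 and 529 (1.38, filtered 0.976). Epor, the receptor for erythropoietin, was at 65.8 and 134 (1.90, filtered 1.54). Kit, the stem cell factor receptor of early progenitors, had 6 UMIs in PBS members and 3 in CFA members. Bnip3l was the 1 of 18 clearance genes past 2-fold, at 393 and 861 (2.16, filtered 2.003).

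Among cell cycle genes, none of 31 replication genes passed 2-fold in either direction, and their median was 0.939, or 0.818 filtered, but 1.10 under scaling by median ratios, which moves the median of all genes to 1.07. All 35 mitosis genes counted were higher in CFA, or 28 of 35 filtered, with a median of 1.52, or 1.17 filtered. Over all genes counted, 2696 of 6375 were higher in CFA and 2.49% were at least 2-fold higher. Over the 1001 genes higher in members than in barcodes under 20% hemoglobin, the median was 1.39, or 1.09 filtered. Of the mitosis genes 3 passed 2-fold: Cenpe at 312 and 725 CPM, Cenpf at 761 and 1555, and Ndc80 at 102 and 221, all kinetochore proteins. None passed 2-fold after the filter. Cdkn1b, the p27 inhibitor of cyclin-dependent kinases, was at 145 and 323 (2.15, filtered 1.88). Hist1h2ap, a replication-dependent histone H2A gene (chromosome 13, 21833026 to 21833507), was lower in CFA at 2152 and 800 (0.375, filtered 0.268), and was also lower in the precursors (1115 and 421) and the other dividing barcodes (634 and 162). The histone genes Hist1h1b (2172 and 2067) and Hist1h2ae (1488 and 1528) were not 2-fold apart. H2A genes are near-identical copies, so their separate counts are uncertain.

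**Figure D4:**
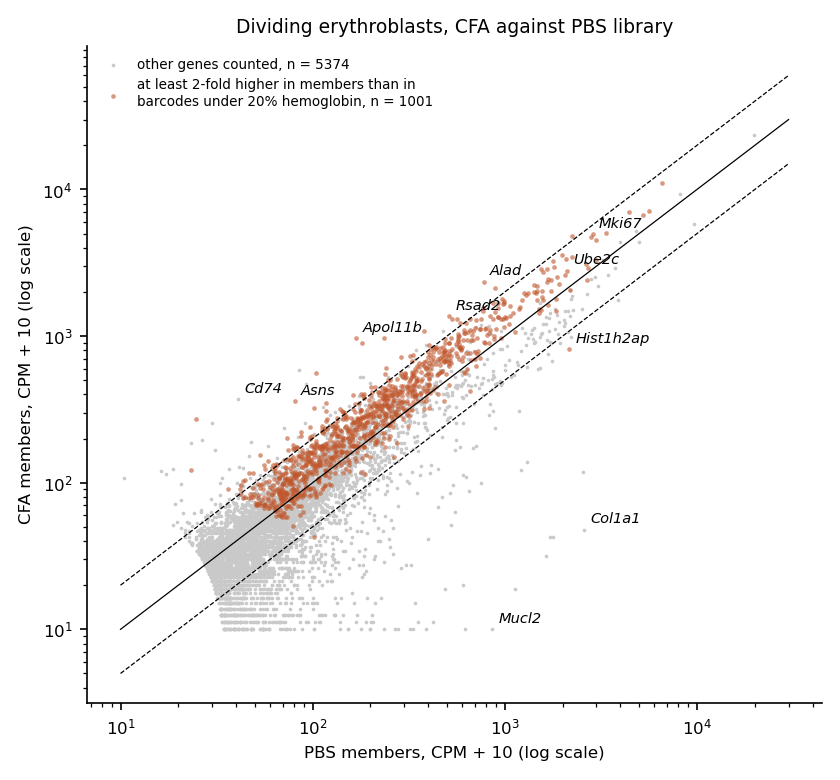
CPM plus 10 of each counted gene in CFA members (vertical axis) against PBS members (horizontal axis), both on log scales, with dashed lines at ratios of 2 and 0.5. Of the 1001 genes that are at least 2-fold higher in members than in barcodes under 20% hemoglobin (orange), 76 lie at or above a ratio of 2 and 2 at or below 0.5. Every member is included, and under the 10-UMI filter, which is not drawn, these numbers were 20 and 7.

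Of 14 stress response genes counted, 3 were at least 2-fold higher in CFA members and 7 at least 2-fold lower, against 2.49% and 14.5% of all genes, with a list median of 0.647. After the filter 3 of 12 were higher and 2 lower, with a median of 0.871. The 3 higher genes, Asns, Atf4 and Ddit3, are known parts of the amino acid and integrated stress response. Asns, the asparagine synthetase (chromosome 6, 7675169 to 7693254), had 145 UMIs or 70.7 CPM in PBS members (59.7 to 83.2) and 277 UMIs or 350 CPM in CFA members (310 to 393), and was present in 29.7% and 68.6% of members, a ratio of 4.46 and 3.65 after the filter. Atf4, its transcription factor, was at 165 and 380 CPM (2.23, filtered 2.05), and Ddit3, which encodes CHOP, at 36.6 and 143 (3.28, filtered 3.25). Trib3 (chromosome 2, 152337422 to 152344032), a feedback target of both, had 2 UMIs in PBS (0.975 CPM, 0.118 to 3.52) and 41 in CFA (51.8 CPM). Chac1, which degrades glutathione, had 0 UMIs in PBS and 8 in CFA, and both genes lay under the 50 UMIs needed to be counted.

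Further genes known from this response were looked up after these values were seen, so their values are no independent support. The glycyl and alanyl tRNA synthetases Gars and Aars were at 37.6 and 181 CPM and at 76.6 and 211, with ratios of 4.01 and 2.55. The mitochondrial one-carbon enzymes Mthfd2 and Shmt2 were at 107 and 337 and at 33.7 and 116, with ratios of 2.97 and 2.89. Slc7a5, a large amino acid transporter, was at 152 and 386 (2.45), and Sesn2, a leucine sensor, at 11.2 and 51.8 (2.91). Chac2, a relative of Chac1, was at 170 and 886 (4.97). After the filter these 7 ratios lay between 2.14 and 4.76, that of Sesn2 on 15 and 32 UMIs. The serine synthesis genes Psat1 and Phgdh had only 15 and 32 UMIs in PBS and 7 and 2 in CFA, with ratios of 1.09 and 0.489, so not every gene looked up was higher. For Asns, Chac2, Aars, Gars and Mthfd2 the order of the libraries was shared by the sets most like the members. Asns was at 27.1 and 133 CPM in PBS and CFA nondividing barcodes and at 117 and 170 in precursors. Chac2 was at 187 and 748 and at 38.4 and 179, and Aars at 19.98 and 52.4 and at 60.5 and 100.4. Gars was at 34.2 and 59.4 and at 86.3 and 109, and Mthfd2 at 58.5 and 87.3 and at 51.6 and 101. In nondividing barcodes Gars had only 24 UMIs in PBS and 17 in CFA, and Aars 14 and 15. The differences of these genes between the libraries were thus not particular to the dividing erythroblasts. Shmt2 was at 15.7 and 27.95 CPM in PBS and CFA nondividing barcodes, on 11 and 8 UMIs, but at 42.7 and 41.6 in precursors. Slc7a5 was at 103 and 238 in nondividing barcodes and at 60.2 and 75.1 in precursors. Sesn2 was at 8.56 and 10.5, on 6 and 3 UMIs, and at 12.3 and 20.8. In the barcodes under 20% hemoglobin Asns was at 24.6 and 14.8, Gars at 54.1 and 42.6 and Mthfd2 at 26.4 and 24.7. These 3 were lower in CFA there, as were Aars, Shmt2 and Slc7a5. Chac2 was nearly equal at 12.0 and 11.6, and Sesn2 was higher in CFA at 8.24 and 9.55.

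The promoters of 4 of these genes hold the letters TGATGNAA, the amino acid response element to which ATF4 and C/EBP proteins bind as a pair. They are shown to set the element beside the values above, as stretches on the strand that reads TGATGNAA, with the element in capitals (RefSeq, GRCm38.p6). Asns lies at chr6:7693210-7693252 on the minus strand, Chac1 at chr2:119351029-119351076 on the minus strand, Aars at chr8:111033710-111033757 on the minus strand and Gars at chr6:55037951-55037998 on the minus strand.
Asns: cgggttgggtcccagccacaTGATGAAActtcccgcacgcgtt
Chac1: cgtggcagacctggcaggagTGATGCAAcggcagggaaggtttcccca
Aars: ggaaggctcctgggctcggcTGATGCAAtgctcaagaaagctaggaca
Gars: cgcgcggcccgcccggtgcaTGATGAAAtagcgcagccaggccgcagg
The element lies 23 bases before the start of Asns, 193 before Chac1, 112 before Aars and 30 before Gars. It was found in any promoter of 4 of 11 of these genes and in 3.45% of all single promoters, and since the genes were picked for their values, the first share is a description.

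Immediate early genes made up most of the downward side of the stress list, with Junb, Ier2, Atf3 and Hspa8 also past 2-fold. Fos was at 702 and 169 CPM, Jun at 440 and 58.1 and Egr1 at 460 and 69.4 in PBS and CFA members. After the filter they were at 51.6 and 28.6, 60.5 and 16.6, and 59.6 and 19.6. Their levels in PBS were thus far lower without the members that held RNA of other cells, and Fos stood at 2008 CPM in PBS barcodes under 20% hemoglobin. In the filtered members the ratios were 0.627 for Fos, 0.377 for Jun and 0.425 for Egr1.

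Some interferon and antigen presentation genes were also higher in CFA members. The interferon list holds responsive genes and also the receptor genes Ifnar1, Ifnar2, Ifngr1 and Ifngr2. Over all genes 2.49% were 2-fold higher and 14.5% lower, with a median of 0.917. Of the 21 genes of the interferon list counted, 3 were 2-fold higher and 2 lower, with a median of 1.45. After the filter 3 of 12 were higher and 0 lower, with a median of 1.42, against 1.92%, 2.69% and 0.994. Ifnar2, a chain of the type I interferon receptor, was at 173 and 515 CPM (2.88, filtered 2.70), and Igtp, an interferon-induced GTPase, at 23.9 and 98.5 (3.20, filtered 2.04). Isg15 was at 861 and 1664 (1.92, filtered 1.36). Irf1 and Ifi27l2a, lower at 118 and 32.8 and at 96.1 and 16.4, had 17 and 5 UMIs left in PBS and 6 and 8 in CFA after the filter, too few to be counted. Of the MHC class I and immunoproteasome list 1 of 9 was 2-fold higher, or 2 of 7 filtered, and none lower. B2m, the light chain of MHC class I, was at 378 and 857 (2.24, filtered 2.27) and the heavy chain H2-D1 at 276 and 533 (1.90, filtered 2.12). In the other dividing barcodes B2m was at 367 and 1046, so its difference was not particular to the erythroblasts.

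Other genes with large ratios were named by rank among the genes higher in members than in barcodes under 20% hemoglobin, a choice made after values were seen. Apol11a and Apol11b, apolipoprotein L genes on chromosome 15 (77508271 to 77518051 and 77633946 to 77643286), were at 14.6 and 264 CPM and at 159 and 960, with ratios of 11.1 and 5.75 (filtered 7.95 and 4.15). In barcodes under 20% hemoglobin Apol11a was at 0.374 and 0.506 CPM and Apol11b at 5.01 and 4.49. Both are gene copies that lie close together, so their separate counts may be uncertain. Vrk2, a kinase, was at 93.6 and 548 (5.38), and Btaf1, which regulates TBP, at 226 and 966 (4.13). Rsad2, which encodes the antiviral enzyme viperin, was at 502 and 1351 (2.66, filtered 2.25). In PBS and CFA nondividing barcodes Rsad2 was at 880 and 2502 CPM, or 3088 and 5650 filtered, and in precursors at 40.5 and 49.7. Its difference was thus not particular to the dividing erythroblasts. Beside Hist1h2ap, the 1 gene of the ranked set at least 2-fold lower in CFA over every member was Cox6b2, at 92.2 and 32.8 (0.419).

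In the remaining lists most genes past 2-fold had fewer than 50 UMIs after the filter, so whether they differed there could not be read. Over all genes and every member, 14.5% were 2-fold lower and 2.49% higher in CFA. Of 10 glycolysis genes 6 were 2-fold lower in CFA (Aldoa, Tpi1, Gapdh, Pgam1, Eno1 and Ldha), and of these only Gapdh was still counted, at a filtered ratio of 0.593. Of 7 transcription factors of progenitors and other lineages 3 were lower (Gata2, Myb and Ebf1), and only Ebf1 was still counted, at 43 UMIs in PBS and 21 in CFA and a ratio of 0.862. Of 16 cyclins, kinases and inhibitors Ccnd1, Ccnd2, Cdk4 and Cdk6 were lower, and none of these 4 was still counted. Ccnd2, a D-type cyclin, was at 57.1 and 8.84 CPM, with 15 UMIs in PBS and 1 in CFA after the filter. Of 18 chromatin genes 3 were lower, near the share of all genes, among them H1f0, a linker histone, at 45.4 and 2.53 CPM, with 13 and 0 UMIs left. In Epo and Kit signalling Socs2 and Socs3, which damp cytokine receptors, were lower, and of 6 CD45 and immune surface genes Coro1a was, all with fewer than 50 UMIs left. None of 14 antioxidant genes and none of 7 genes of adhesion in erythroblast islands passed 2-fold, with medians of 1.22 and 1.03.

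**Figure D5:**
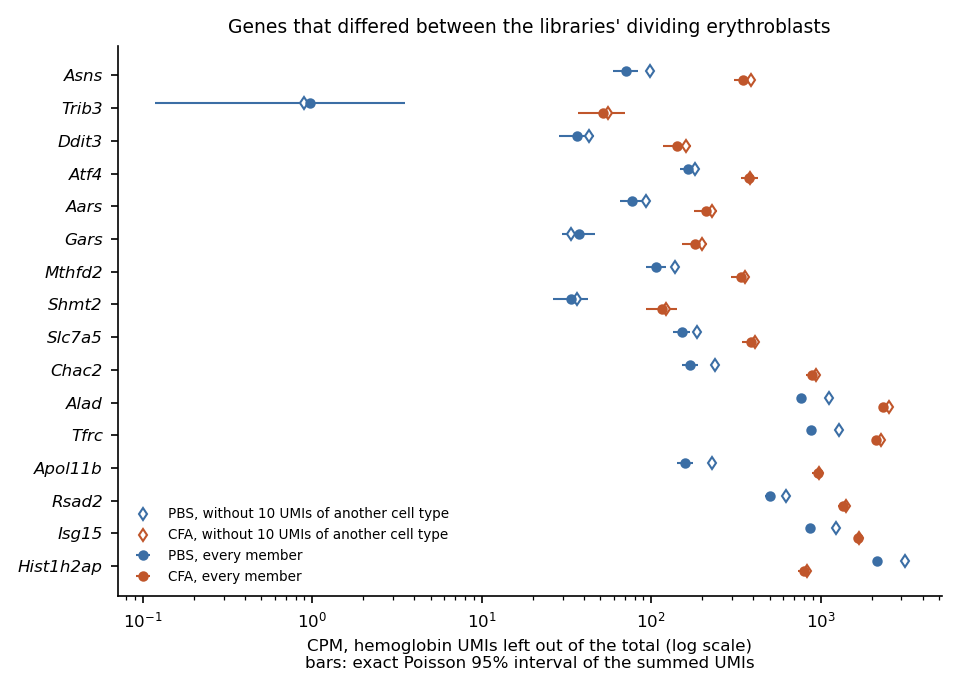
CPM of 16 named genes (log scale, hemoglobin left out of the total) in PBS and CFA members, as filled points for every member with the exact 95% Poisson interval of the summed UMIs, which covers counting error only, and as open diamonds without members holding 10 UMIs of another cell type. Alad, Tfrc, Asns and Apol11b are higher and Hist1h2ap is lower in CFA, with intervals that do not overlap.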

How the data were processed

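UMI counts per gene and barcode were deposited for 1 PBS and 1 CFA library. Per the labels and the submitters' processing notes, the authors made them with Cell Ranger 7.0.1 on the mm10 mouse genome (GRCm38). The labels and the study's methods differ on the chemistry version and digestion enzymes of the 10x 3' kit. No column lacked a sample (0). The members, gene lists and comparisons were chosen with earlier results of these data known.

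Counts of 32285 genes were summed over each set of barcodes and scaled to CPM without the 4 hemoglobin genes. A gene with at least 50 UMIs over the sets compared was called at a ratio of at least 2 or at most 0.5 after adding 10 CPM. Named genes were up to 6 per list by summed CPM and any listed gene past 2-fold, the 10 highest outside hemoglobin, the 10 highest and 10 lowest CFA to PBS ratios without mitochondrial, ribosomal and immunoglobulin genes, and the 10 highest and 10 lowest against nondividing barcodes; others were chosen after values were seen, and not every gene that qualified is printed, since some are not reported here. Python 3.11.15, numpy 2.4.6, scipy 1.17.1, pandas 2.3.3 and matplotlib 3.10.9 were used, and the scripts were tested on simulated counts. Share intervals are Clopper-Pearson and CPM intervals exact Poisson, at 95%. Promoters are RefSeq windows, and 274 of 347 listed symbols matched one. Other thresholds, scalings, added CPM, filters on other-cell RNA and thinning to 2000 UMIs were tried as alternatives.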

Additional observations from a re-analysis of the deposited data

How the results depend on the processing

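No paired analysis was possible because each condition has 1 library. No listed or ranked gene past 2-fold turned its direction under an alternative that left it enough UMIs to be counted. Of the listed genes, Ifi27l2a, Socs3 and Cdk4, 2-fold lower over every member, stood at ratios of 1.53, 1.32 and 1.07 under the 10-UMI filter, each on fewer than 50 UMIs. Counts moved. Leaving out barcodes with 3 UMIs of another cell type kept 165 PBS and 65 CFA members. In PBS the members were 6.60% of kept barcodes at a 10% hemoglobin limit, 3.75% at 30%, 5.95% and 4.28% at 2 and 5 Mki67 plus Top2a UMIs, 5.77% and 3.71% at 2000 and 8000 UMIs, and 2.82% and 3.64% without barcodes holding 3 or 10 UMIs of another cell type. They were 3.91% of every barcode, 9.98% of those with at least 4000 UMIs and 10.1% of barcodes at or under 1% hemoglobin plus the members. In CFA the values that moved were 2.60% at 5 such UMIs, 2.44% at 8000 UMIs, 1.49% without barcodes holding 3 UMIs of another type, 2.45% of every barcode and 4.65% of those with at least 4000 UMIs. The CFA to PBS ratio of shares became 0.466 and 0.333 over the last 2 denominators and 0.813 (0.656 to 1.01) under the 10-UMI filter, which reaches 1. The dividing share of erythroid barcodes became 51.4% at 30% hemoglobin, 65.2% at 2 UMIs, 46.8% at 5 and 64.1% with 2000 UMIs other than hemoglobin in PBS, and 60.1%, 42.2% and 62.5% for the last 3 in CFA.

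Genes higher in CFA numbered 159, and 86 with all UMIs in the total, 412 with median-ratio scaling, 97 at 200 UMIs per gene, 251 and 61 with 1 and 50 CPM added, 57 and 77 under the 3-UMI and 10-UMI filters and 76 among genes higher in members than in other barcodes. Genes lower in CFA numbered 927, and 259 at 200 UMIs, 241 with 50 CPM, 80 and 108 under the filters, 273 with cells thinned and 2 among the members' own genes. Against nondividing barcodes, 882 higher became 425 with 50 CPM, 1447 and 1626 under the filters, and 956 lower became 223 with all UMIs, 515 with the mean of each cell's CPM, 461 at 200 UMIs, 222 with 50 CPM, 218 and 237 under the filters and 429 thinned. Listed genes higher in CFA (16) became 10 with all UMIs or 50 CPM, 46 with median-ratio scaling, 8 under the 3-UMI filter and 8 among own genes, and those lower (28) became 14 at 200 UMIs or 50 CPM, 1 and 4 under the filters, 17 thinned and 1 among own genes. From the lowest to the highest hemoglobin group, the replication ratio in PBS went from 0.583 for every member to 0.0880 and 0.198 under the filters, and in CFA from 0.0464 to 0.0302 under the 10-UMI filter; the mitosis ratio went from 2.72 to 1.33 and 1.38 in PBS and from 0.754 to 1.19 and 0.494 in CFA. In the last case the 3-UMI filter put the ratio on the other side of 1. The cause of these moves was not tested. Genes with fewer than 50 UMIs were not counted, and thinning left out 20 PBS and 5 CFA members.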

Other observations

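Some values belong to no comparison above. RNA of secreted proteins of glands was spread over the PBS members and was not detected in the CFA members: Obp1a was found in 56.7% of PBS members, Mucl2 in 75% and Scgb1b2 in 49.0%, and each had 0 UMIs in CFA. Without members holding 10 UMIs of another cell type they were still at 637, 858 and 321 CPM in PBS. In barcodes under 20% hemoglobin they were at 3236, 2938 and 945 CPM in PBS and at 0, 0.022 and 0 in CFA.

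Other values rest on very few barcodes. Prss34, a mast cell and basophil protease, had 700 UMIs in PBS members and was present in 1.67% of them, and 1 member held 1033 UMIs of the mast cell and basophil list. The embryonic globin Hbb-bh1 had all of its 31 UMIs in 1 PBS member.

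Emb, which encodes embigin, and Acyp2, an acylphosphatase, were among the 10 highest CFA to PBS ratios and kept them without members holding 10 UMIs of another cell type, at 19.2 and 10.1. In barcodes under 20% hemoglobin Emb was at 63.1 and 162 CPM and Acyp2 at 54.9 and 79.2.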
